A study of Rattus norvegicus with 6 samples.

Results

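The GALNT genes encode the polypeptide N-acetylgalactosaminyltransferases, the Golgi enzymes that begin mucin-type O-linked glycosylation. The members described here are 10 genes listed by name, Galnt1, Galnt2, Galnt3, Galnt4, Galnt7, Galnt10, Galnt11, Galnt12, Galnt16 and Galnt18. Of these, 9 have a row in the table of 20675 rat genes, Galnt4 is not analysed here, and 8 passed the filter on low values. The members were chosen by function with the RPKM values of the GSK101 comparison already in view, so their levels and differences are given as a description. The members went through the same fit as all other genes. Their place against its threshold is given only as a count, with its dependence on the processing, and supports nothing here.

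Expression was measured by RNA sequencing of polyadenylated RNA in cells taken from the disc of the rat jaw (temporomandibular, TMJ) joint, a fibrous pad between its bones, and used as primary cells. The treated group (3 libraries) received GSK101, which opens the calcium-permeable channel TRPV4, for 24 h. The control group (3 libraries) received DMSO, at a concentration described as the same, for the same time. The labels name no genotype, strain, age or dose. They leave unsaid if each replicate was its own animal or culture, so p-values measure only the spread between these libraries, which may be partly technical. All levels are in RPKM, which divides a gene's reads by its length and by all reads counted in the library, and allows levels to be set side by side between genes.

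Each GALNT enzyme takes N-acetylgalactosamine (GalNAc) from the donor UDP-GalNAc and attaches it to a serine or threonine of a protein passing through the Golgi. The family members differ in the peptides they prefer, and some, among them Galnt7 and Galnt10, mainly add GalNAc to peptides that already carry it. The first GalNAc is then extended by other enzymes with galactose, N-acetylglucosamine and sialic acid. In joints, the lubricating protein lubricin, encoded by Prg4, is a heavily O-glycosylated mucin-like protein.

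The libraries held 43061102 to 45705238 counted reads. Fibroblast markers were abundant (summed RPKM of 5 genes 5173 to 5868 in the controls and 4498 to 5457 with GSK101). Col1a1 and Col3a1 carried that sum and were not called (log2 fold changes -0.22 and -0.10). In contrast, Dcn, Lum and Pdgfra were called higher (log2 fold changes 0.41, 0.54 and 0.43). Col3a1 and Pdgfra share exon positions on the same strand with AABR07067556.1 and AABR07014881.1, whose log2 fold changes were 0.21 and 0.52. Levels differed within the chondrocyte and epithelial lists. The cartilage collagen gene Col2a1 reached at most 0.0389, Matn3 0.113 and Comp 0.695. Acan had means of 33.6 in the controls and 31.9 with GSK101, most of the chondrocyte sum. Sox9 had means of 2.80 and 2.46. The epithelial cadherin gene Cdh1 reached at most 0.0206, Krt18 0.0984, Krt19 0.101 and Epcam 0.123, while Krt8 had means of 2.09 and 1.72. Summed leukocyte markers lay at 6.59 to 9.58 and 5.85 to 9.16, epithelial markers at 2.11 to 2.34 and 1.79 to 2.08, and chondrocyte markers at 33.0 to 41.0 and 33.7 to 36.1. Cd68 made up most of the leukocyte sum (4.41 to 7.18 and 3.99 to 6.84). Aif1 had means of 1.06 and 1.09, while Ptprc, Csf1r and Adgre1 reached at most 0.576, 0.350 and 0.390. Of 12801 tested genes, 2570 were higher and 1518 lower with GSK101 at a Benjamini-Hochberg adjusted p under 0.05 in limma, and the median log2 fold change was 0.03. Of these calls 62.9% were higher with RPKM as deposited. The share was 72.4% with RPKM rescaled to a fixed sum per library (TPM), 52.5% with median-ratio scaling and 48.1% with quantile normalization.

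A pair of enzymes with broad peptide preferences made up most of the GALNT transcripts. Galnt1, on chromosome 18 from 16146447 to 16185496 (all gene coordinates are on Rnor_6.0), stood at 54.5, 55.1 and 57.3 RPKM in control replicates 1, 2 and 3 and at 53.8, 56.4 and 55.4 with GSK101. Galnt2, on chromosome 19 from 57047830 to 57115132, stood at 39.2, 35.4 and 33.4 in the controls and at 38.1, 38.6 and 32.4 with GSK101. The groups overlapped for both genes, and the ratio of the means, GSK101 over control, was 0.992 for Galnt1 and 1.01 for Galnt2. The log2 fold changes were -0.01 (SE 0.04) and 0.01 (SE 0.08) on the log2(RPKM + 0.5) scale. Galnt1 lay above 87.6% of all tested genes by mean RPKM, and Galnt2, known also for its link to plasma lipids, above 82.7%.

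Galnt10, on chromosome 10 from 43067299 to 43210427, was the next most abundant member. It stood at 15.8, 12.4 and 14.8 RPKM in the controls and at 18.6, 18.3 and 15.4 with GSK101. The means were 14.3 ± 1.72 and 17.5 ± 1.76 (SD, n = 3), a ratio of 1.22 and a log2 fold change of 0.28 (SE 0.10). GSK101 replicate 3 lay below control replicate 1, so the groups overlapped.

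Galnt11, whose enzyme is known to glycosylate the receptor Notch1, lies on chromosome 4 from 6297255 to 6330765. It stood at 6.79, 6.94 and 7.01 RPKM in the controls and at 5.92, 5.48 and 6.10 with GSK101. All 3 GSK101 libraries lay below all 3 controls. The means were 6.91 ± 0.112 and 5.83 ± 0.317 (SD, n = 3), and the log2 fold change was -0.23 (SE 0.06). An exon of Galnt11 overlaps E130116L18Rik on the opposite strand, and the libraries are stranded, but use of strand in counting is not stated in the labels. That gene stood at 2.47 ± 0.520 and 2.45 ± 0.407 RPKM, with 28 to 41 reads per library against 662 to 828 for Galnt11.

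Galnt18, on chromosome 1 from 176296193 to 176607466, differed most between the groups. Its product belongs to a subfamily (with those of Galnt8, Galnt9 and Galnt17) for which little or no transferase activity has been found on common test peptides. It stood at 4.99, 4.62 and 5.35 RPKM in the controls (572, 509 and 593 reads) and at 1.47, 1.87 and 1.94 with GSK101 (164, 212 and 209 reads). The highest GSK101 library was far below the lowest control. The means were 4.99 ± 0.369 and 1.76 ± 0.252 (SD, n = 3), 2.84-fold lower with GSK101, with a log2 fold change of -1.29 (SE 0.10). Only 4 of the 12801 tested genes had a more negative log2 fold change. In bulk RNA, fewer cells of a type and less RNA per cell cannot be told apart. Markers of pericytes and smooth muscle were mixed. Of 4 tested, Myh11 and Mcam were called lower, while Cspg4 and Des had higher means with GSK101 (log2 fold changes 0.20 and 0.26) and were not called. The summed level of the 5 genes was 423 to 439.9 RPKM in the controls and 275 to 302 with GSK101, of which Myh11 alone made up 386 to 402 and 245 to 270.2. Rgs5, a pericyte marker of that list, was at 0 in control replicate 1 and at most 0.227 elsewhere. All 3 tested skeletal muscle markers were called lower too, with a summed level of 14.6 to 16.0 and 8.64 to 9.36. That sum was mostly Acta1 (11.9 to 13.4 and 7.26 to 8.09), and Ckm, the list's other marker, had at most 4 reads in a library. Myh3, among those called, passed the filter only through the controls (0.551 to 0.623 RPKM, against 0.146 to 0.212 with GSK101). The filter thus favoured its call. The single tested endothelial marker, Kdr, was called higher, with a summed level of 0.639 to 0.822 and 1.08 to 1.21 over that list, in which Cdh5 stood at 0.0544 RPKM or less. The part of such cells in the difference of Galnt18 was not tested.

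**Figure D1:**
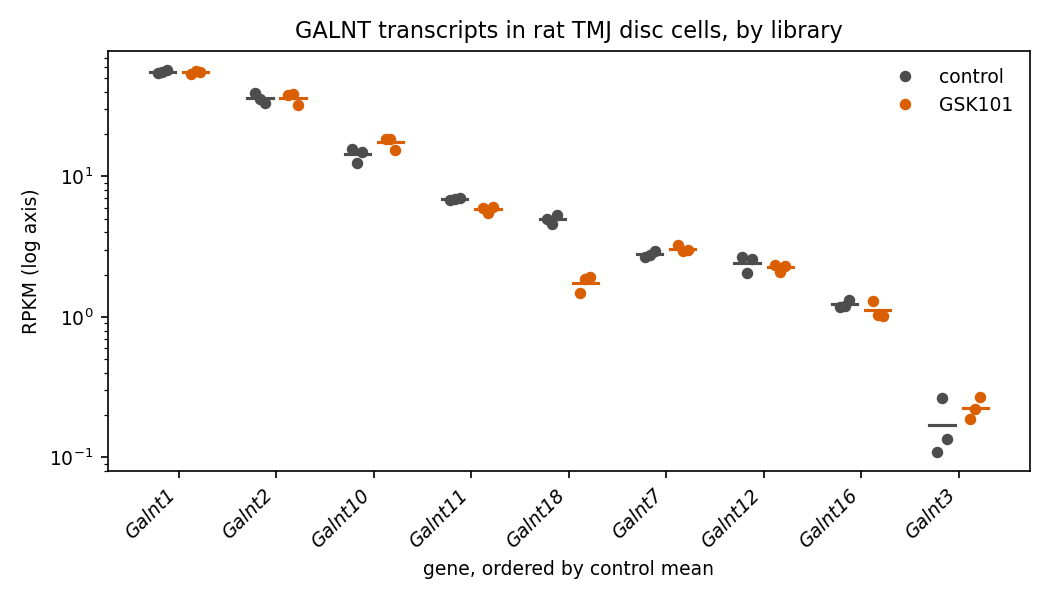
RPKM (log axis) of the 9 measured members in each library, ordered by the control mean; points are libraries (replicates 1 to 3 from left to right) and short lines are group means. Galnt18 is the member whose groups lie farthest apart, with controls at 4.62 to 5.35 and GSK101 libraries at 1.47 to 1.94.

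The remaining members stood at 3.25 RPKM or less in every library. Galnt7, on chromosome 16 from 35934970 to 36062719, was at 2.67, 2.74 and 2.92 in the controls and at 3.25, 2.94 and 2.99 with GSK101. The groups did not overlap, by a margin of 2.92 against 2.94, and the log2 fold change was 0.12 (SE 0.07). Galnt12, on chromosome 5 from 62718787 to 62750145, was at 2.65, 2.04 and 2.60 and at 2.35, 2.09 and 2.31, with a log2 fold change of -0.09 (SE 0.10). RefSeq lists 4 pseudogenes of Galnt12, so its level is less certain where reads could map to a copy. Galnt16, on chromosome 6 from 104068547 to 104250174, was at 1.18, 1.19 and 1.32 and at 1.30, 1.03 and 1.01, with a log2 fold change of -0.10 (SE 0.11). The groups overlapped for Galnt12 and Galnt16.

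Galnt3, which is known for protecting the phosphate hormone FGF23 from cleavage, was scarce. It lies on chromosome 3 from 52175547 to 52212412 and stood at 0.109, 0.265 and 0.136 RPKM in the controls and at 0.187, 0.221 and 0.271 with GSK101. These values rest on 15, 35 and 18 reads and on 25, 30 and 35 reads. The groups overlapped, and the gene was below the filter, so no difference was tested for in the fit over all genes.

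In the fit over all genes, 2 of the 8 members that passed the filter lay past the threshold with lower levels (Galnt11 and Galnt18) and 0 with higher levels. Over all tested genes 31.9% were called, 11.9% lower and 20.1% higher. Since the members were chosen with these values in view, nothing is read from their count. For 3 of the 8 the groups were apart (Galnt7, Galnt11 and Galnt18), against 47.3% of all tested genes. The median log2 fold change of the 8 was -0.05, beside 0.03 for all tested genes. The count depended on single libraries: Galnt11 dropped out of it without control replicate 2 or 3 and without GSK101 replicate 1 or 2. Galnt10 entered it, with higher levels, without control replicate 1, without GSK101 replicate 3 and with limma-voom on the recovered reads. The log2 fold change of Galnt18 ran from -1.51 to -1.12 over the 17 alternatives.

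**Figure D2:**
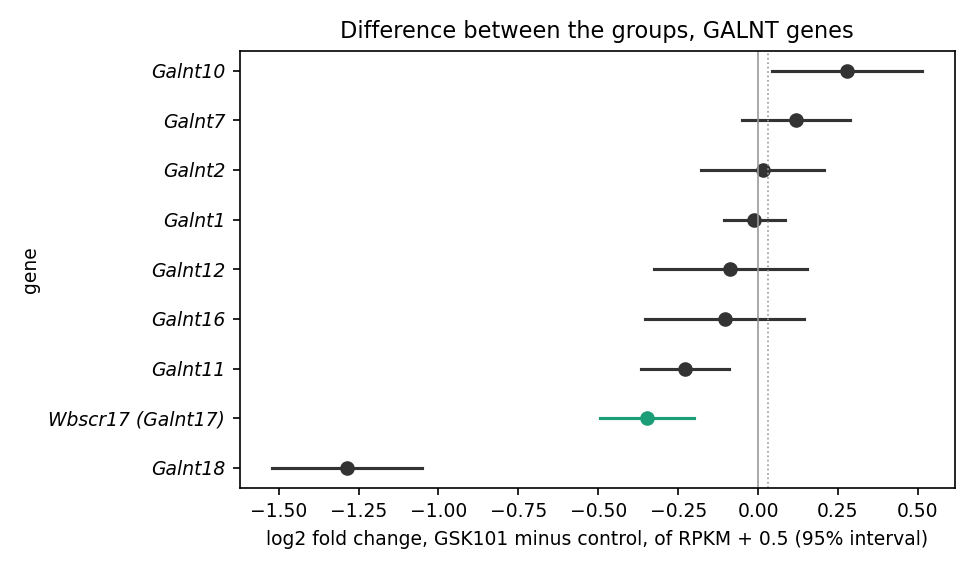
Log2 fold change, GSK101 minus control, of RPKM + 0.5 for the 8 tested members and for Wbscr17 (green), with unadjusted 95% intervals from limma; the solid line is 0 and the dotted line the median of all tested genes. Galnt18 sits at -1.29, while the other members lie between -0.23 and 0.28.

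The order of the members by level was the same in both groups except for Galnt18. In the controls the order was Galnt1, Galnt2, Galnt10, Galnt11, Galnt18, Galnt7, Galnt12, Galnt16 and Galnt3. With GSK101, Galnt18 stood below Galnt7 and Galnt12 and above Galnt16. No neighbours in either order overlapped between libraries, though Galnt7 and Galnt12 came close in the controls, with a lowest value of 2.67 for Galnt7 and a highest of 2.65 for Galnt12. The ratio of Galnt10 to Galnt18 had a mean of 2.87 ± 0.251 (SD, n = 3) in the controls and 10.2 ± 2.37 (SD, n = 3) with GSK101. That ratio does not depend on the scaling between libraries.

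The wider family was examined for GALNT genes outside the member list. Of 10 further genes listed, 8 were measured and 1 passed the filter, Wbscr17, the older symbol of Galnt17, on chromosome 12 from 28381982 to 29268073. It stood at 10.3, 10.4 and 10.3 RPKM in the controls and at 8.02, 8.65 and 7.40 with GSK101, with no overlap. Its level lay between those of Galnt10 and Galnt11. Wbscr17 fell by 0.35 on the log2 scale (SE 0.06, limma adjusted p = 0.00541). Like Galnt18 it belongs to the subfamily named above. The other 7, all below the filter, were Galnt5 (0.236 and 0.242 RPKM in the group means), Galnt6 (0.138 and 0.174), Galnt13 (0.120 and 0.159), Galnt14 (0.0876 and 0.0460), Galnt9, Galntl5 and Galntl6. The last 3 had at most 4 reads in a library, near a floor of 3 reads, which covers counting error only. The groups overlapped for each of these 7, and none was tested in the fit over all genes.

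Summed over the 17 measured GALNT genes, the level was 135 ± 3.55 RPKM (SD, n = 3) in the controls and 132 ± 5.46 with GSK101. The libraries stood at 139, 132 and 136 and at 134, 136 and 126, so the groups overlapped. Galnt1 made up 41.1 ± 1.62% of this sum in the controls and 41.9 ± 1.94% with GSK101, and Galnt2 26.6 ± 1.85% and 27.5 ± 1.54%. Galnt18 made up 3.68 ± 0.233% and 1.34 ± 0.221%, and Wbscr17 7.62 ± 0.250% and 6.07 ± 0.241%. The share of Galnt10 was 10.6 ± 1.01% and 13.2 ± 0.855%, at 11.3%, 9.43% and 10.9% in the controls and 13.9%, 13.4% and 12.3% with GSK101. As shares, unlike RPKM values, the groups did not overlap for Galnt10. Its lowest GSK101 share was in replicate 3, where the family sum was also lowest (126). The shares of Galnt7, Galnt11, Galnt18 and Wbscr17 also did not overlap, with Galnt7 at 2.15% on both sides of the gap. Separation on this scale was not worked out for other genes, so nothing is read from it. Shares sum to a fixed total, so they are not independent of each other.

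**Figure D3:**
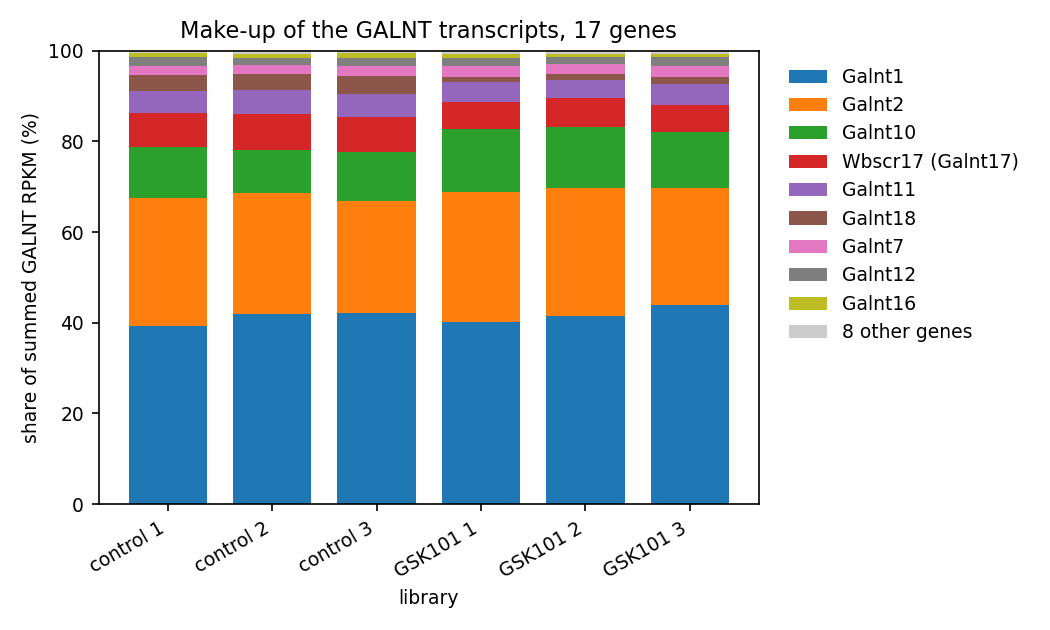
Share of each gene in the summed RPKM of the 17 measured GALNT genes, in percent, for each of the 6 libraries. Galnt1 and Galnt2 fill 66.8% to 69.8% of every bar, and the Galnt18 band narrows from 3.50% to 3.94% in the controls to 1.10% to 1.54% with GSK101.

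Galnt1 and Galnt18 were also set beside all non-member tested genes by the root mean square difference of the 6 centred log2(RPKM + 0.5) values. Nearest to Galnt1 were Trub2, Cldnd1 and Lmo7, with differences of 0.0151, 0.0151 and 0.0177. Nearest to Galnt18 were Rgs4, a regulator of G protein signalling, Parm1, which encodes a mucin-like membrane protein, and Eln, which encodes elastin, with differences of 0.0540, 0.0758 and 0.0778. Rgs4 went from 6.80 to 2.32 RPKM, Parm1 from 24.0 to 9.62 and Eln from 174 to 77.2 in the group means. Likeness over 6 libraries mainly reflects a group difference of similar size.

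The RefSeq windows around transcript starts (GRCr8 build, 250 bases before to 50 after the start) were available for 7 of the 10 members. The windows of Galnt10 and Galnt11, the members with a window that differed most in each direction, are shown in the direction of the gene, chr10:42322269-42322568 on the plus strand and chr4:10604925-10605224 on the minus strand. Capitals mark matches to GGGCGG, a GC box, and TGACGTCA, a cyclic AMP response element, on either strand.
Galnt10: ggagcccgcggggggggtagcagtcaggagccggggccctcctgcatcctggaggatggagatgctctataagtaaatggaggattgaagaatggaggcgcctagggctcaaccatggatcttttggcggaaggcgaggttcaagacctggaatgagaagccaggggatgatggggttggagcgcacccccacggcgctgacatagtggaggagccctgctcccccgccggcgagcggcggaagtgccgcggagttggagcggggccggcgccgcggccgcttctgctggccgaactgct
Galnt11: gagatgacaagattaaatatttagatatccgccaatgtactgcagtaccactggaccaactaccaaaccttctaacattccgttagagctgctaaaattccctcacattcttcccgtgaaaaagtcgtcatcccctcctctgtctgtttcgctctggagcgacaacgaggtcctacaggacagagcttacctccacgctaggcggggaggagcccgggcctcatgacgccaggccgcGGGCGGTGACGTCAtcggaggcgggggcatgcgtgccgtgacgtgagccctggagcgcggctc
Galnt11 had 1 match to GGGCGG with 1 to TGACGTCA directly after it, and Galnt10 had neither. Of the 7 members 4 held GGGCGG, as did 33.1% of all 33469 windows, and 1 held TGACGTCA, as did 1.83%. None held TGANTCA, a motif bound by AP-1 factors such as c-Fos, which 7.33% of all windows held. TGACGTCA was added after the sequences had been seen. The GC content was 74.3% for Galnt7, 72.0% for Galnt12, 68.0% for Galnt16, 65.7% for Galnt10 and 56.7% for Galnt11, all above the median of 51.7%. It was 40.0% for Galnt1 and 37.0% for Galnt3, whose listed starts lie 35225 and 12998 bases inside the gene. The listed starts of Galnt10 and Galnt16 lie 828 and 713 bases inside. The printed Galnt10 window therefore lies wholly inside the gene, unlike that of Galnt11.

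The steps after GALNT were examined next. The 7 tested genes for extending the first GalNAc encode enzymes and a chaperone. Of these genes, 3 rose and 1 fell (57.1% called, beside 31.9% of all tested genes). Their median log2 fold change was -0.04, beside 0.03 for all tested genes. C1galt1, the synthase of the core 1 disaccharide, was at 1.59, 1.82 and 2.08 RPKM in the controls and at 2.5, 2.53 and 2.76 with GSK101, and rose by 0.42 on the log2 scale (SE 0.10, limma adjusted p = 0.0147). C1galt1c1, the chaperone that C1galt1 requires, did not pass, at 14.1 ± 1.80 and 13.0 ± 1.39 (SD, n = 3). Gcnt4, a core 2 branching enzyme, was at 1.14, 1.25 and 0.861 and at 2.20, 1.92 and 1.68, a ratio of the means of 1.79 (limma adjusted p = 0.00843).

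Sialyltransferases of O-glycans moved in both directions. St6galnac3, which adds sialic acid to GalNAc in already sialylated glycans, was at 1.39, 1.21 and 1.46 RPKM in the controls and at 0.515, 0.559 and 0.612 with GSK101. It was 2.41-fold lower (limma log2 fold change -0.80, SE 0.11, adjusted p = 0.00136), and its fold change ran from -1.27 to -0.59 over the alternatives. St3gal1, which caps core 1 with sialic acid, was at 3.09, 2.60 and 2.58 and at 3.58, 3.36 and 3.31, and rose by 0.27 (SE 0.08, limma adjusted p = 0.0418). That call was lost in 8 of 17 alternatives, among them those without control replicate 2 or 3 or any 1 GSK101 replicate, with adjusted p from 0.00667 to 0.129 over all of them. St3gal2, which shares exon positions with Ddx19b on the opposite strand, and St6galnac4 missed the threshold (log2 fold changes -0.08 and -0.04). Gcnt1, a further core 2 enzyme gene, named here after its values were seen, was below the filter with 10, 10 and 8 reads in the controls and 30, 32 and 28 with GSK101.

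Genes that supply the sugar donors also moved both ways. Of 12 tested, 3 rose and 2 fell (41.7% called, beside 31.9% of all tested genes), and the median log2 fold change was 0.02. Uap1, which makes UDP-GlcNAc and UDP-GalNAc, was at 25.8, 23.6 and 22.9 RPKM in the controls and at 40.9, 37.5 and 37.6 with GSK101, a 1.61-fold rise (log2 fold change 0.67, SE 0.06, limma adjusted p = 0.000279). Gfpt2, an isoform of the first enzyme of the hexosamine pathway, rose 1.52-fold from 5.07 ± 0.0419 to 7.70 ± 0.537 (SD, n = 3; limma adjusted p = 0.00079). Gfpt1, the other isoform, did not pass (14.1 ± 0.355 and 15.6 ± 0.294). Galk2, a GalNAc kinase, rose by 0.26 on the log2 scale, but its exons overlap Cops2 and Fam227b on the opposite strand, and Cops2 rose too, by 0.51. Uap1l1, a relative of Uap1, fell by 0.31 (19.6 ± 0.338 and 15.8 ± 0.926). Slc35a2, a Golgi transporter of UDP-galactose, outside the naming rule and named after its values were seen, fell by 0.28.

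Enzymes that start other kinds of protein O-glycosylation were a point of comparison. Of 9 tested, 1 rose and 1 fell (22.2% called, beside 31.9% of all tested genes), and the median log2 fold change was 0.06. Pofut2, which attaches fucose to thrombospondin repeats, fell by 0.35 from 67.7 ± 3.04 to 53.0 ± 3.69 RPKM (SD, n = 3; limma adjusted p = 0.0042). Xylt1, a xylosyltransferase that starts the glycosaminoglycan chains of proteoglycans, rose 1.66-fold, from 1.13, 0.632 and 1.11 to 1.68, 1.74 and 1.35 (limma adjusted p = 0.0383). That call was lost in 6 of 17 alternatives, among them those without control replicate 2, GSK101 replicate 1 or GSK101 replicate 2, with adjusted p from 0.00686 to 0.112 over all of them.

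Proteins that carry mucin-type or similar O-glycans were the last list. Of 9 tested, 4 rose and 1 fell (55.6% called, beside 31.9% of all tested genes), and the median log2 fold change was 0.07. Cd44, the hyaluronan receptor, was at 118, 109 and 112 RPKM in the controls and at 149, 146 and 147 with GSK101, and rose by 0.38 on the log2 scale (SE 0.04, limma adjusted p = 0.000647). Pdpn, which encodes the mucin-like membrane protein podoplanin, rose by 0.38 from 88.7 ± 3.04 to 116 ± 8.54 (SD, n = 3). Prg4 was at 11.0, 13.2 and 8.72 and at 38.6, 34.8 and 20.2 (log2 fold change 1.43, SE 0.24, limma adjusted p = 0.0037). The lipoprotein receptor gene Vldlr fell by 0.32, while Lrp8, a related receptor gene named after its values were seen, rose by 0.42. Muc1, Muc15, Muc20, Podxl, Cd34 and Emcn had at most 14 reads in a library. Spn, named after its values were seen, was also below the filter. It had 62, 64 and 40 reads in the controls and 26, 36 and 26 with GSK101, and its RPKM groups did not overlap.

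Over the 5 lists without the members, 11 of 38 tested genes rose and 6 fell, 44.7% of those tested beside 31.9% of all tested genes. The lists were drawn up by function but with earlier results of these data known. This share was not tested, and nothing is read from it.

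**Figure D4:**
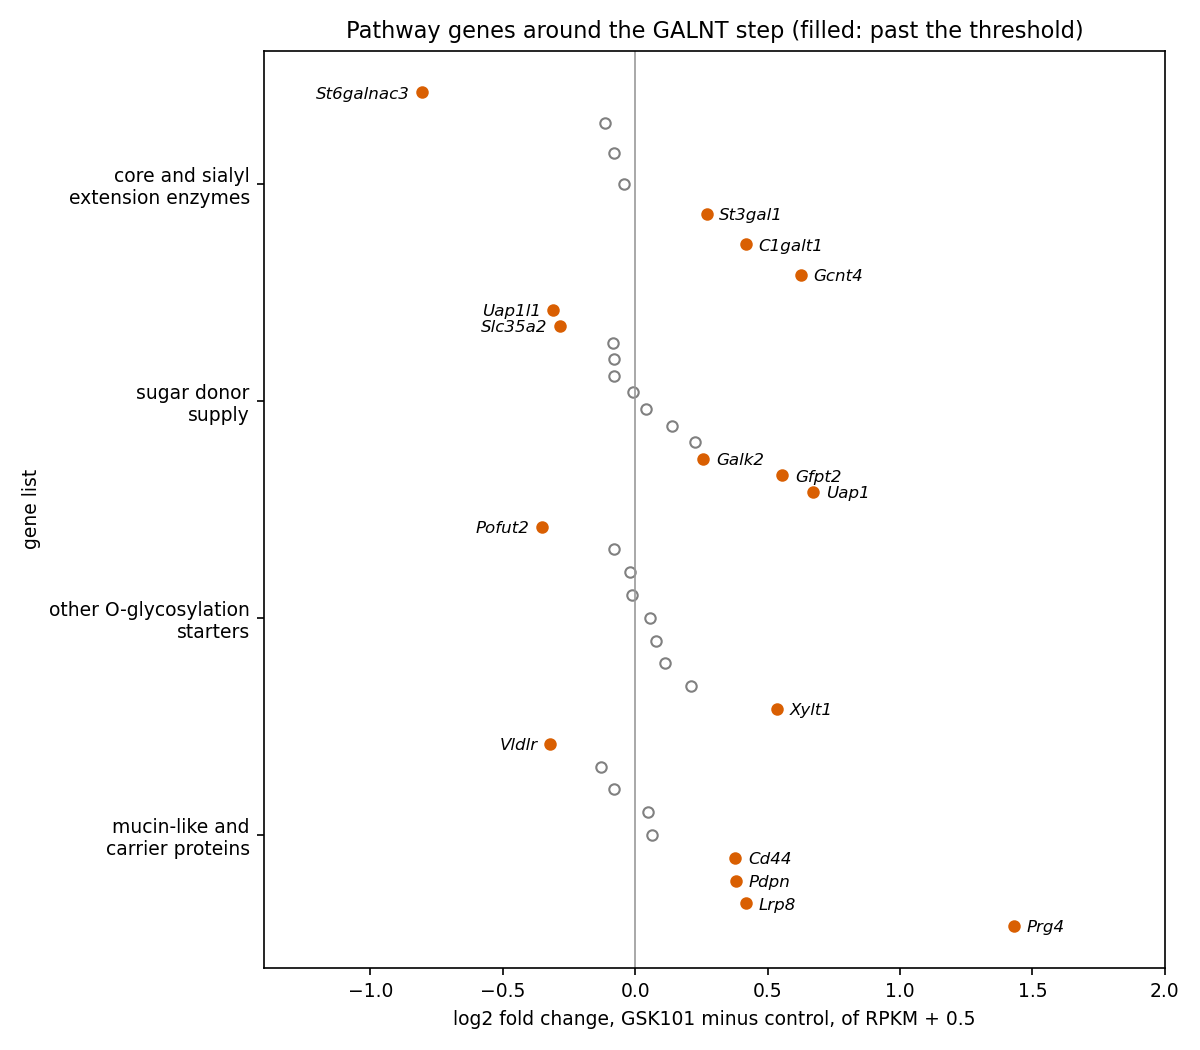
Log2 fold change, GSK101 minus control, of RPKM + 0.5 for the tested genes of 4 lists around the GALNT step; filled points with names passed the threshold (limma, adjusted p under 0.05) and open points did not. Each list has filled points on both sides of 0, from St6galnac3 at -0.80 to Prg4 at 1.43.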

How the data were processed

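RNA of 6 libraries (3 control, 3 GSK101) was sequenced, and groups and replicate numbers come from the sample titles. The authors deposited 1 table of RPKM values with gene positions and lengths. In the submitters' processing notes stand the build Rnor_6.0 and the tools edgeR 3.12.1, Subread 1.5.1 with featureCounts, STAR 2.5.3a and Trimmomatic 0.36, without roles. The kit is stranded and adds molecular identifiers, but how counting used either was not stated in the labels. The deposited RPKM values times gene length were whole multiples of 1 step per library, to within 0.01 of a read, for 100% of values, which gave the reads. Reads of 1 to 10 per gene were even in 71.3% to 74.7% of cases, so mates may have been counted apart. Replicate pairs differed beyond counting noise (chi-square per gene 2.36 to 7.84, on reads divided by 2).

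Genes reaching 0.5 RPKM in 3 or more libraries were tested with limma 3.58.1 (R 4.3.3, mean-variance trend) on log2(RPKM + 0.5), Benjamini-Hochberg adjusted over all tested genes. The script was run on simulated data, with fewer changed genes than here and changes larger than most here. Its pass mark was lowered after a first run, so nothing is read from it. A fold change on that scale understates changes of low genes. The members and lists were chosen with earlier results of these data known. Named were all members, all measured other GALNT genes, up to 4 called genes per other list with the smallest adjusted p (or the most abundant, up to 2 in all), and the 3 genes nearest to Galnt1 and Galnt18. Markers of 7 cell types were checked: fibroblast (3 of 5 tested higher), chondrocyte (0 of 2 called), leukocyte (0 of 2), endothelial (1 of 1 higher), pericyte and smooth muscle (2 of 4 lower), epithelial (0 of 1) and skeletal muscle (3 of 3 lower). Myh3, in the skeletal muscle list, passed the filter only through the controls. Alternatives covered pseudocounts of 0.1 and 1, filters, scalings, variance models, limma-voom on the recovered reads, a replicate block and each library left out.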

Additional observations from a re-analysis of the deposited data

How the results depend on the processing

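Over the 17 alternatives 23 genes were followed: the 8 members that passed the filter, Wbscr17 and the called pathway genes of the naming rule. Genes below the filter, named for likeness or named after their values were seen were not followed. None of the 23 turned direction past the threshold, and of the pathway genes followed only St3gal1 and Xylt1 lost the call in some. As a description, the count of members past the threshold with higher levels was 0, but 1 with limma-voom and 0 to 1 with 1 library left out, the gene being Galnt10. With lower levels it was 2, and 1 to 2 with 1 library left out, Galnt11 dropping out. The log2 fold changes of Galnt1 and Galnt2, near 0, changed sign in 3 and 5 alternatives. Counts over all tested genes stayed within 1.5 times, with 1835 to 2295 higher and 1055 to 1294 lower when 1 library was left out. With the replicate number as a block, 2508 genes were higher and 1437 lower, with 0 and 2 members, and Xylt1 was not called (adjusted p = 0.053). The numbers were not taken as pairs because they are only shared names. Deviations of libraries with the same number correlated at 0.05, -0.06 and 0.05, and those with different numbers at -0.15 to 0.11. With 3 libraries per group, these values cannot exclude a shared replicate effect. Galnt3 and 7 other family genes were below the filter and were left out of the fit over all genes. The size of change that their reads could show was not worked out.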

Other observations

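Other Golgi transferases and sulfotransferases, taken by symbol after the data had been seen, gave 29 tested genes outside the lists, of which 5 rose and 4 fell (31.0%, beside 31.9% of all tested genes, in limma). St6gal1, which sialylates N-glycans, was at 3.57 ± 0.149 RPKM (SD, n = 3) in the controls and 1.99 ± 0.0392 with GSK101, a log2 fold change of -0.71. St3gal6, a further sialyltransferase gene, fell by 0.52, while St3gal5, the synthase of the ganglioside GM3, rose by 0.49. Chst11, which sulfates chondroitin, rose 1.54-fold from 10.5 ± 0.501 to 16.1 ± 0.904. B3gnt2 and B3gnt9 rose by 0.37 and 0.44, and Chst2 rose by 0.32. B4galt7, which adds galactose in the linker of glycosaminoglycan chains, and B4galt2 fell by 0.23 and 0.22.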
